A study of Homo sapiens with 15 samples.

Results

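The genes described here are the D and E cyclins CCND1, CCND3, CCNE1 and CCNE2. They were picked by name, 4 of the 19531 gene names in the count tables, and all rows carrying a name were added up. CCND2, the third D cyclin gene, is no member of this set and is given beside CCND1 and CCND3 because the tables hold it.

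Cyclins are the activating subunits of cyclin-dependent kinases. D cyclins bind CDK4 and CDK6 in G1 and begin the phosphorylation of RB, which frees E2F factors, and their genes are known to respond to growth factors. E cyclins bind CDK2, add to the phosphorylation of RB and help to fire replication origins. CCNE1 and CCNE2 are known E2F targets, and the cyclin E protein is marked for destruction in S phase by FBXW7.

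The RNA came from U2OS, a human osteosarcoma line, grown without synchronisation although the series title calls the cells synchronised. For 45 minutes the cells took up 4-thiouridine, which enters new RNA, and EdU, which enters replicating DNA. After glyoxal fixation EdU signal and DNA stain defined the sort gates G1, Early_S, Late_S and G2, and G2 is also written as G2/M in the labels, so it may hold mitotic cells. Each gate had 3 libraries, alkylated so that 4-thiouridine is read as C, and 3 further libraries named No_alk were not alkylated and give the background. All 5 groups are of 1 cell line. The labels neither say which cells No_alk holds nor whether the 3 libraries of a group are separate cultures. A p-value thus only sets a difference between groups against the spread between these libraries. In such bulk samples, fewer cells expressing a gene and less RNA per cell cannot be told apart. Levels are relative to the library, so more total RNA per cell would also lower a gene whose own RNA per cell is unchanged.

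A gene's steady-state level rests on all of its reads, and its nascent level on those with a T-to-C conversion, called T>C reads. The labelled share is T>C reads as a percentage of the gene's reads. CPM is a count relative to the TMM-scaled library size, taken within all reads for the steady-state level and within T>C reads for the nascent level. The 15 libraries held 16096695 to 21803972 reads in annotated regions at transcript ends. Of all reads, T>C reads made up 22.3% ± 0.740 for G1, 18.4% ± 0.516 for Early_S, 10.0% ± 0.0870 for Late_S, 10.1% ± 0.336 for G2 and 1.01% ± 0.0179 for No_alk (SD, n = 3 each). A nascent CPM is therefore a level against the bulk of T>C reads of the same library, and it does not carry this lower labelling of Late_S and G2. Of the mesenchymal markers, VIM, COL1A1, SPARC and TIMP1 were present but COL1A2 had 0 to 32 reads in a library, and of other cell types' markers PTPRC and PECAM1 had at most 5 reads, while the epithelial gene KRT18 was present. By gate, the G2 and mitosis gene CCNB1 had a mean of 131, 215, 261 and 350 CPM and PLK1 60.6, 77.5, 175 and 245 CPM in G1, Early_S, Late_S and G2.

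Nearly all reads of each gene fell in 1 annotated region at its 3′ end (hg38), where this type of library primes. CCND1 is on chromosome 11, and its region runs over 69651283 to 69654474 on the + strand, with all but 6 of the gene's 84516 reads over the 12 alkylated libraries. CCND3 is on chromosome 6, and all of its 16674 reads lay in 41934933 to 41935939 on the - strand. CCNE1 is on chromosome 19, with the gene at 29811991 to 29824312 in RefSeq, and has a single annotated region, 29823778 to 29824308 on the + strand, with 31456 reads. CCNE2 is on chromosome 8, with 93% of its 1900 reads in 94879770 to 94881745 on the - strand and the rest spread over 4 of its other 7 regions. In these libraries, at most 0.368% of the reads of a member mapped to several places. CCNE2 is thus the member with the weakest counting: a library held 42 to 254 of its reads, against 2136 to 3339 of CCNE1, 1105 to 1744 of CCND3 and 4883 to 8230 of CCND1.

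CCNE1 was the one member whose new RNA differed across phases by edgeR with T>C scaling, so the 250 bases before its start are shown, from RefSeq (GRCh38.p14, chr19:29811741-29811990, + strand). Capitals mark the letters TCCCGC, the core of a known E2F motif, or its reverse complement.

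CCNE1: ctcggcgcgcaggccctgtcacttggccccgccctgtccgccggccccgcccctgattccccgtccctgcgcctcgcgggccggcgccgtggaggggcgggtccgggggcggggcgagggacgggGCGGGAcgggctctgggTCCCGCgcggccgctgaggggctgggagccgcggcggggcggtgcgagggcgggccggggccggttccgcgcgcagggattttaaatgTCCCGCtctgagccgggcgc

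The CCNE1 window holds TCCCGC 2 times on the shown strand, 108 and 20 bases before the start, and 1 time on the other strand, 125 bases before it. On both strands together, 23.5% of 35116 RefSeq windows of this length hold TCCCGC at least once. GGGCGG, the letters of an SP1 box, is there 5 times on the shown strand and 2 times on the other, where 42.6% of windows hold it, and the one 127 bases before the start overlaps the TCCCGC match on the other strand. TTTNNCGC, TTTGAA and TGACTCA (the E2F consensus, the cell cycle homology region and an AP-1 site) were not in this window, and 5.92%, 13.3% and 4.203% of windows hold them. CCND3 has 3 windows, and only the one that starts at 41941759 holds TCCCGC, 1 time and on the other strand. No window was at hand for CCND1, CCND2 or CCNE2, so CCNE1 was not compared with them here.

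At steady state, all 4 genes differed across the phases, where 34.1% of 13755 genes passed the same test. CCNE1 and CCNE2 were lower in Late_S and G2 than in G1, CCND1 was lowest in Early_S, and CCND3 was highest there. CCNE2 had the largest of these changes, 2.63-fold lower in Late_S than in G1.

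CCNE1, which encodes cyclin E1, had 171, 183 and 168 CPM for G1, 140, 147 and 135 for Early_S, 133, 129 and 128 for Late_S, and 127, 119 and 102 for G2. All G1 libraries lay above all others, and the order G1, Early_S, Late_S, G2 held without overlap between any pair of gates. The means were 174 ± 8.13, 141 ± 5.59, 130 ± 2.91 and 116 ± 12.8 CPM (SD, n = 3 each; edgeR F-test adjusted p = 5.73e-05). CCNE1 fell by 0.31 ± 0.10 on the log2 scale (SE) in Early_S against G1 (adjusted p = 0.0178), by 0.42 ± 0.10 in Late_S (adjusted p = 0.00143) and by 0.58 ± 0.10 in G2 (adjusted p = 1.42e-05). In this order G1 and Early_S were neighbours that differed, whereas Late_S against Early_S (adjusted p = 0.549) and G2 against Late_S (adjusted p = 0.649) did not pass. The Early_S change stayed at -0.28 without G1 2 (adjusted p = 0.0593) or Early_S 3 (adjusted p = 0.0697) but was not called there. G2 against Early_S (-0.28 ± 0.10, adjusted p = 0.0415) was not called in 9 of 18 alternatives, with changes of -0.19 (without G2 3, adjusted p = 0.244) to -0.30 (without Early_S 3, adjusted p = 0.0567). Those 9 were RLE scaling and the fits without G1 3, any Early_S library, Late_S 1, Late_S 3, G2 2 or G2 3.

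CCNE2, which encodes cyclin E2, had 14.3, 11.9 and 10.8 CPM for G1, 12.6, 10.9 and 13.4 for Early_S, 2.82, 6.76 and 4.44 for Late_S, and 2.29, 8.83 and 4.19 for G2. Every G1 and Early_S library lay above every Late_S and G2 library, and the first libraries of Late_S and G2 were the lowest. The means were 12.3 ± 1.81, 12.3 ± 1.25, 4.67 ± 1.98 and 5.10 ± 3.36 CPM (SD, n = 3 each; adjusted p = 0.00188). CCNE2 fell by 1.40 ± 0.39 on the log2 scale in Late_S against G1 (adjusted p = 0.00777) and by 1.27 ± 0.39 in G2 against G1 (adjusted p = 0.0147). It also fell by 1.39 ± 0.39 in Late_S (adjusted p = 0.0144) and by 1.27 ± 0.39 in G2 (adjusted p = 0.0168), both against Early_S. Early_S against G1 (-0.00 ± 0.38, 95% interval -0.75 to 0.74, adjusted p = 0.995) and G2 against Late_S (0.13 ± 0.39, 95% interval -0.64 to 0.89, adjusted p = 0.967) did not pass.

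Each of the 4 pairwise calls of CCNE2 was lost in at least 1 fit without 1 library, with changes that stayed below 0. Without Late_S 1, the change in Late_S was -1.14 log2 against G1 (adjusted p = 0.0653) and -1.13 against Early_S (adjusted p = 0.102), and the last call was also lost without Late_S 3 (-1.36, adjusted p = 0.0593). G2 against G1 was not called without G2 1 (-0.92, adjusted p = 0.107), G2 3 (-1.15, adjusted p = 0.0623) or G1 1 (-1.15, adjusted p = 0.0716), and was -1.92 without G2 2 (adjusted p = 0.000732). G2 against Early_S was not called without G2 1 (-0.92, adjusted p = 0.115), G2 3 (-1.14, adjusted p = 0.0676) or Early_S 3 (-1.20, adjusted p = 0.0532), and was -1.91 without G2 2 (adjusted p = 0.000998). The test across the 4 phases passed in every fit that left out 1 library.

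CCND1, the cyclin D1 gene, had 416.6, 398.6 and 404.0 CPM for G1, 339.1, 331.4 and 309.8 for Early_S, 377.0, 356.7 and 366.6 for Late_S, and 389.0, 430.0 and 362.2 for G2. The 3 Early_S libraries were the lowest of all 12, and the G2 libraries overlapped with both G1 and Late_S. The means were 406 ± 9.25, 327 ± 15.2, 367 ± 10.1 and 394 ± 34.2 CPM (SD, n = 3 each; adjusted p = 0.00387). CCND1 fell by 0.31 ± 0.07 on the log2 scale in Early_S against G1 (adjusted p = 0.00137) and rose by 0.27 ± 0.07 in G2 against Early_S (adjusted p = 0.00779). The rise in G2 was not called without G2 2 (0.20, adjusted p = 0.0857) or Early_S 3 (0.23, adjusted p = 0.0536). From high to low the order was G1, G2, Late_S, Early_S, and no neighbours in it passed (adjusted p = 0.734, 0.747 and 0.154). The last pair, Late_S and Early_S, did not overlap (unadjusted p = 0.0307).

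CCND3, the cyclin D3 gene, had 69.0, 72.5 and 69.6 CPM for G1, 85.3, 75.4 and 98.8 for Early_S, 68.8, 81.1 and 79.8 for Late_S, and 60.3, 68.0 and 59.2 for G2. Early_S lay above G1 and G2 without overlap, and G2 lay below every other gate. The means were 70.4 ± 1.86, 86.5 ± 11.8, 76.6 ± 6.75 and 62.5 ± 4.77 CPM (SD, n = 3 each; adjusted p = 0.0190). CCND3 fell by 0.47 ± 0.13 on the log2 scale in G2 against Early_S (adjusted p = 0.00608), the only pair that passed. From high to low the order was Early_S, Late_S, G1, G2, and no neighbours in it passed (adjusted p = 0.430, 0.573 and 0.379). Without Early_S 3, which had the highest value, neither that pair (-0.36, adjusted p = 0.0683) nor the test across phases (adjusted p = 0.120) passed. The test across phases was also lost without G2 1 (adjusted p = 0.0517) or G2 3 (adjusted p = 0.0611), and without Early_S 2 the rise in Early_S against G1 was called (0.39, adjusted p = 0.0361; 0.30 ± 0.13, adjusted p = 0.0810, with all libraries).

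**Figure D1:**
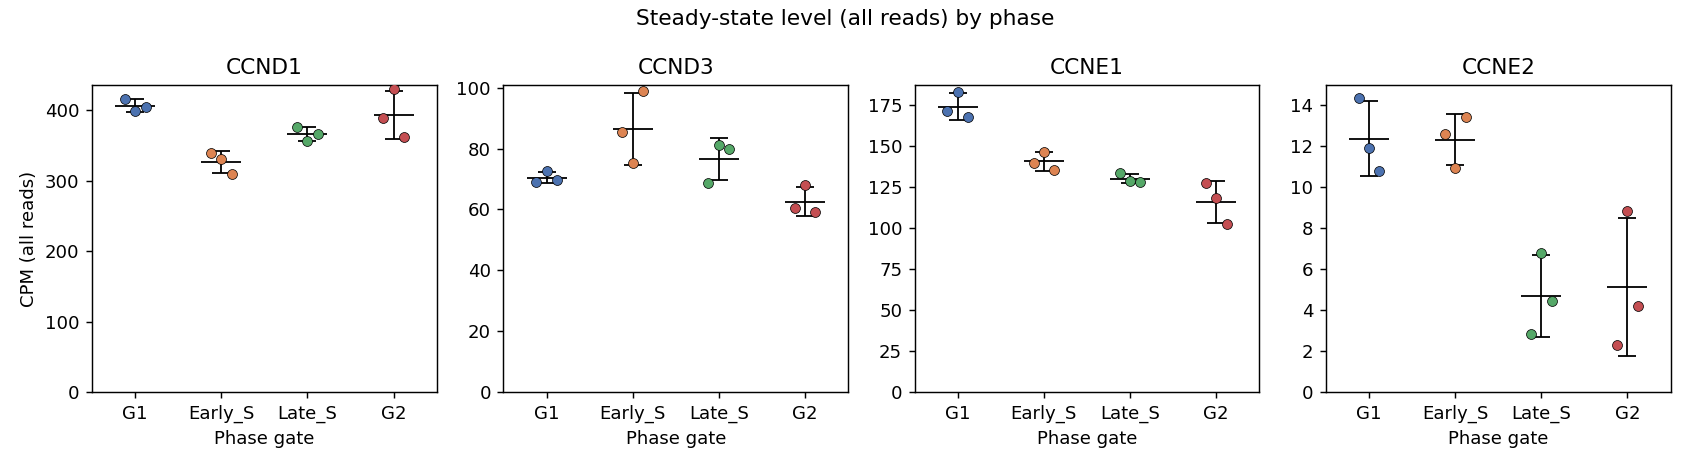
Steady-state level in CPM of all reads (vertical axes, linear, each from 0) by gate; each point is 1 library, and the bar is the mean ± SD of 3. CCNE1 steps down from G1 on, CCNE2 is low in Late_S and G2, CCND1 is lowest in Early_S (327 CPM) and CCND3 highest there (86.5 CPM).

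The counts of called members stood as follows beside those of all genes tested. Early_S against G1 called 2 of 4 members, both lower (CCND1 and CCNE1), with 24.3% of genes called and 11.8% called lower. Late_S against G1 and G2 against G1 each called CCNE1 and CCNE2 as lower, with 9.22% and 10% of genes called lower and 19.9% and 21.1% called in all. Late_S against Early_S called CCNE2 alone, with 11.2% of genes called and 4.25% called lower. G2 against Early_S called all 4 members, CCND1 as higher and the other 3 as lower, with 19.3% of genes called, 10.4% higher and 8.96% lower. G2 against Late_S called 0 members by edgeR, and 0.145% of genes. At an unadjusted p under 0.05 this pair had 1 member, CCND3 (-0.29 ± 0.13, adjusted p = 0.442, unadjusted p = 0.0248), and DESeq2 called 0 of the 4 too.

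Tested by region, the main region of each gene differed across phases as well (adjusted p = 0.00987 for CCND1, 0.0263 for CCND3, 8.72e-05 for CCNE1 and 0.0103 for CCNE2), where 18.9% of 22836 regions passed. That of CCND1 was lost without Early_S 3 (adjusted p = 0.0660), and that of CCND3 without Early_S 1, Early_S 3, G2 1 or G2 3 (adjusted p up to 0.151). Of the other CCNE2 regions, 1 was tested and did not pass (8:94892818 to 94892969, 50 reads, adjusted p = 0.989).

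Among the 3 D cyclin genes, CCND2 ran against CCND1 at steady state. CCND2 had 339.5, 331.2 and 352.9 CPM for G1, 473.2, 478.8 and 470.1 for Early_S, 443.7, 430.5 and 449.8 for Late_S, and 361.4, 399.9 and 387.7 for G2. Its G1 libraries were the lowest and its Early_S libraries the highest of the 12. CCND2 rose by 0.47 ± 0.07 on the log2 scale in Early_S against G1 (adjusted p = 1.35e-06), where CCND1 fell and CCND3 gave 0.30 ± 0.13 without passing. It rose by 0.37 ± 0.07 in Late_S against G1 (adjusted p = 8.77e-05) and fell by 0.31 ± 0.07 in G2 against Early_S (adjusted p = 0.00116), the pair in which CCND1 rose. Over the 12 libraries, which share the 4 gates, Pearson's r of log2 CPM was -0.78 between CCND1 and CCND2, -0.67 between CCND1 and CCND3, 0.62 between CCND2 and CCND3 and 0.59 between CCNE1 and CCNE2, given as a description. In nascent level, Early_S against G1 gave 0.24 for both CCND1 and CCND2, and edgeR called neither. With all libraries and T>C scaling, CCND2 did not pass edgeR across phases in nascent level (adjusted p = 0.275) or labelled share (adjusted p = 0.235).

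**Figure D2:**
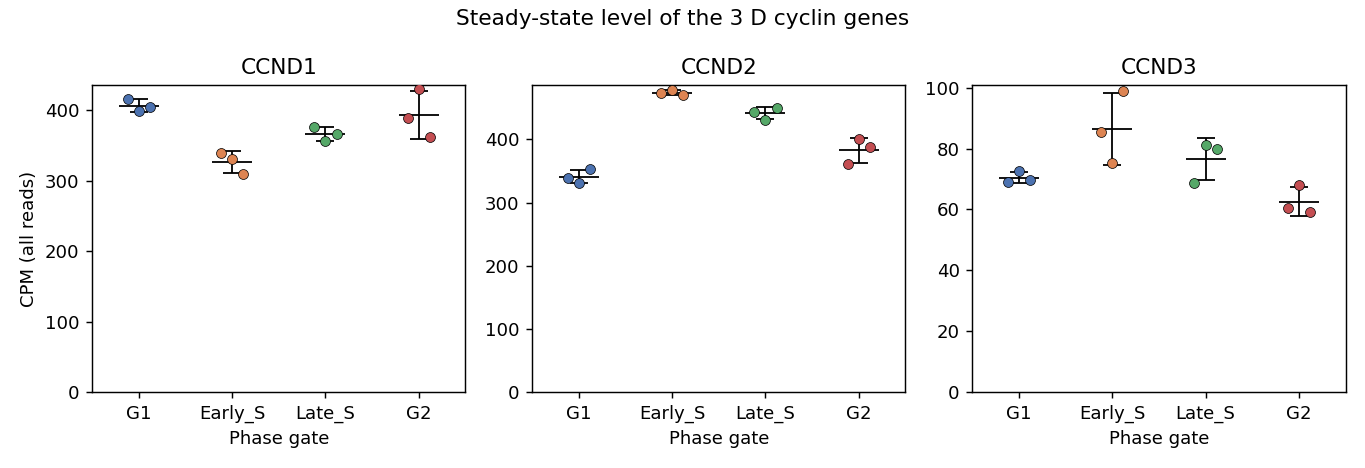
Steady-state level in CPM of all reads (linear axes from 0) of the D cyclin genes CCND1, CCND2 and CCND3 by gate; points are libraries and bars the mean ± SD of 3. CCND1 is lowest in Early_S, the gate in which CCND2 and CCND3 are highest.

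In new RNA, with T>C reads scaled among themselves, CCNE1 was the one member that differed across phases by edgeR (adjusted p = 4.99e-07), where 10.4% of 11474 genes passed. CCNE1 had 456.8, 482.4 and 424.1 CPM of T>C reads for G1, 391.2, 421.3 and 339.3 for Early_S, 211.7, 191.5 and 198.8 for Late_S, and 223.4, 228.6 and 187.0 for G2. Every G1 and Early_S library lay above every Late_S and G2 library, with no overlap between G1 and Early_S either, while Late_S and G2 overlapped. Means were 454 ± 29.2, 384 ± 41.4, 201 ± 10.2 and 213 ± 22.6 CPM (SD, n = 3 each). CCNE1 fell by 1.18 ± 0.15 on the log2 scale in Late_S against G1 (2.26-fold lower, adjusted p = 2.44e-06) and by 1.09 ± 0.15 in G2 against G1 (adjusted p = 7.24e-06). It fell by 0.94 ± 0.15 in Late_S (adjusted p = 0.000230) and by 0.85 ± 0.15 in G2 (adjusted p = 0.000491), both against Early_S. Early_S against G1 did not pass (-0.24 ± 0.15, adjusted p = 0.506). These 4 calls held in all 19 alternatives, with an adjusted p of at most 0.00575.

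The nascent levels of the other 3 members gave no call. CCND1 had 678.1, 679.4 and 660.7 CPM of T>C reads for G1, 824.0, 825.9 and 731.8 for Early_S, 829.0, 773.5 and 842.4 for Late_S, and 750.6, 710.2 and 651.7 for G2 (adjusted p = 0.179). Its Early_S and Late_S libraries lay above those of G1, with a change in Late_S against G1 of 0.28 ± 0.10 (adjusted p = 0.136), which DESeq2 called (adjusted p = 0.0356), as it did the test across phases (adjusted p = 0.0481). CCND3 had 68.8, 83.3 and 71.6 CPM for G1, 111.8, 80.3 and 96.7 for Early_S, 45.9, 68.0 and 71.3 for Late_S, and 48.0, 72.6 and 66.5 for G2 (adjusted p = 0.359). G1 overlapped with the other gates here, and Early_S lay above Late_S and G2. CCNE2 had 50.4, 46.9 and 38.3 CPM for G1, 47.3, 48.1 and 66.4 for Early_S, 1.66, 40.8 and 36.8 for Late_S, and 9.38, 50.5 and 22.3 for G2 (adjusted p = 0.538). The 2 low values of CCNE2 were Late_S 1, with 3 T>C reads, and G2 1, with 17, and its SE was 0.60 to 0.63 on the log2 scale in every pair of phases.

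**Figure D3:**
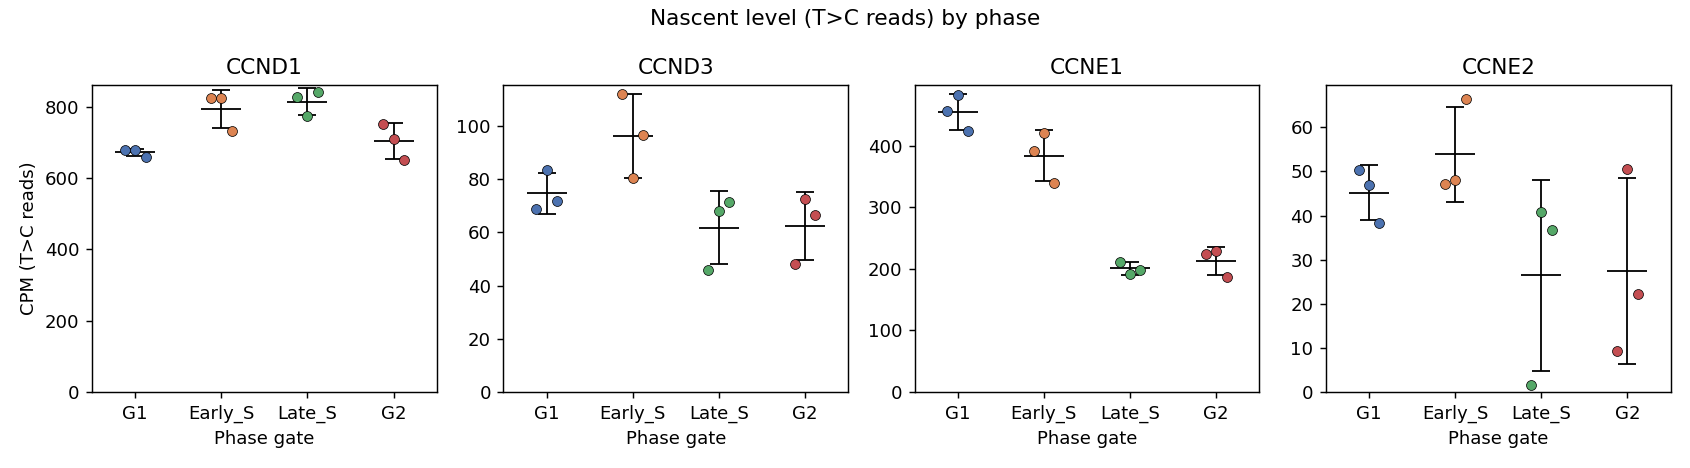
Nascent level in CPM of T>C reads (linear axes, each from 0) by gate; points are libraries and bars the mean ± SD of 3. CCNE1 separates G1 and Early_S (454 and 384 CPM) from Late_S and G2 (201 and 213 CPM), and CCNE2 spreads widely in Late_S and G2.

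Among all genes, 5.36% were called in nascent level in Late_S against G1, 7.3% in G2 against G1, 3.53% in Late_S against Early_S and 5.85% in G2 against Early_S, each pair with 1 of 4 members, CCNE1, called as lower. Called lower were 1.9%, 2.9%, 1.81% and 3.18% of genes in these pairs. Early_S against G1 called 5.17% and G2 against Late_S 0.0523% of genes, both with 0 members by edgeR or DESeq2. At an unadjusted p under 0.05, edgeR had 1 member, CCND1, in Early_S against G1 (0.24 ± 0.10, unadjusted p = 0.0301) and 0 in G2 against Late_S.

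The scaling of T>C reads sets the sign of some of these values. Scaled by all reads of each library, the median gene moved by -0.33 log2 in Early_S against G1, -1.22 in Late_S against G1, -1.27 in G2 against G1, -0.91 in Late_S against Early_S, -0.95 in G2 against Early_S and -0.03 in G2 against Late_S. Calls in Late_S against G1 then split into 60 higher and 5863 lower, against 397 and 218 with T>C scaling, and those in G2 against G1 into 61 and 6137, against 505 and 333. In Early_S against G1 they split into 206 and 629, against 423 and 170. In Late_S against Early_S they split into 11 and 4188, against 197 and 208, and in G2 against Early_S into 18 and 4488, against 306 and 365.

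Set against all reads of the library, T>C reads of CCNE1 in CPM were 105 ± 3.43 for G1, 71.1 ± 6.82 for Early_S, 19.9 ± 0.776 for Late_S and 20.8 ± 1.54 for G2 (SD, n = 3 each), and its log2 change on that scale was -2.40 in Late_S and -2.34 in G2 against G1, below that of the median gene. Early_S against G1 then passed too (-0.56, adjusted p = 0.00996). For CCND1 the same measure was 156 ± 8.90, 147 ± 11.5, 80.7 ± 2.40 and 68.7 ± 4.86, and its change in Late_S against G1 turned to -0.95 (adjusted p = 7.27e-08), above that of the median gene. CCND3, at 17.2 ± 0.718, 17.9 ± 3.71, 6.12 ± 1.41 and 6.08 ± 1.15, changed by -1.49 in Late_S against G1. CCNE2, at 10.4 ± 1.41, 10.0 ± 2.08, 2.63 ± 2.15 and 2.62 ± 1.88, changed by -1.98.

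The labelled share sets new reads against all reads of the same gene. In G1, 60.3% of all CCNE1 reads were T>C reads, above 85.1% of the 11474 genes tested, and CCNE2 stood higher still with 84.7%, above 96.8% of genes. CCND1 was at 38.3%, above 64.6% of genes, CCND3 at 24.4%, above 41.9%, and CCND2 at 18.5%, above 29.5%, where the median gene had 28.8%. By Late_S, CCNE1 was above 62.9% of genes, whereas CCND1 was above 75.2% and CCNE2 above 94.4%. These ranks are not adjusted for the number of T positions that a read of each gene covers. In No_alk, the share was 0.660% of 28038 reads for CCND1, 0.0532% (1 T>C read) of 1879 for CCND3, 0.673% of 9357 for CCNE1 and 0.613% (4 T>C reads) of 653 for CCNE2. All 4 members were called above this background over the alkylated libraries, as were 83.8% of 12909 genes, with both kinds of reads scaled by total reads. The log2 odds ratio was 5.99 ± 0.20 for CCND1 (adjusted p = 3.50e-21) and 6.31 ± 0.36 for CCNE1 (adjusted p = 1.40e-15). None is given for CCND3 and CCNE2, whose background rests on 1 and 4 T>C reads, the 4 of CCNE2 all in No_alk 2. With own TMM factors for each kind, which set a gene against the bulk, 4019 genes in place of 10824 were called in either direction.

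CCNE1 and CCND1 differed in labelled share across phases beyond the bulk of genes, with adjusted p = 1.09e-06 and 0.000140 in edgeR, where 14.7% of 11474 genes passed. For CCNE1 the share was 63.6%, 56.4% and 61.3% for G1, 54.1%, 50.8% and 46.7% for Early_S, 15.6%, 15.01% and 15.3% for Late_S, and 17.4%, 17.8% and 18.7% for G2, against 0.156%, 0.735% and 1.12% for No_alk. No gates overlapped, and Late_S was lowest. The 95% Wilson interval of a library's share, which covers counting error only, was 2.66 to 4.23 percentage points wide. Against the bulk, the log2 odds of a CCNE1 read being new fell by 1.54 ± 0.19 in Late_S (adjusted p = 3.82e-06) and by 1.24 ± 0.19 in G2 (adjusted p = 6.65e-05), both against G1. They fell by 1.35 ± 0.19 in Late_S (adjusted p = 2.95e-05) and by 1.05 ± 0.19 in G2 (adjusted p = 0.000443), both against Early_S. Early_S against G1 (-0.19 ± 0.19, adjusted p = 0.718) and G2 against Late_S (0.30 ± 0.19, adjusted p = 0.713) did not pass.

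For CCND1 the share was 38.8%, 36.5% and 39.6% for G1, 47.0%, 44.0% and 44.0% for Early_S, 21.6%, 21.9% and 22.6% for Late_S, and 19.1%, 15.2% and 18.4% for G2, against 0.479%, 0.783% and 0.713% for No_alk. CCND1 was highest in Early_S without overlap, the gate in which its steady-state level was lowest. Its log2 odds rose by 0.79 ± 0.13 against the bulk in Early_S against G1 (adjusted p = 0.000227) and fell by 0.77 ± 0.13 in G2 against Early_S (adjusted p = 0.000222). With both kinds of reads scaled by all reads, the rise in Early_S was 0.40 and did not pass (adjusted p = 0.113), beside a median gene at -0.38. Late_S against G1 was 0.41 ± 0.13 (adjusted p = 0.0507, and 0.0438 without G2 2), which turned to -1.14 when scaled by all reads, beside a median of -1.64. Late_S against Early_S was -0.38 ± 0.13 (adjusted p = 0.0707, and 0.0396 without G1 2).

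CCND3 and CCNE2 did not pass in labelled share (adjusted p = 0.717 and 0.755). CCND3 had 23.8%, 24.6% and 24.9% for G1, 25.3%, 18.8% and 18.2% for Early_S, 6.54%, 8.47% and 8.77% for Late_S, and 7.87%, 9.84% and 11.5% for G2, against 0%, 0% and 0.143% for No_alk, where 0 of 521 and 0 of 657 reads allow a share of up to 0.576% and 0.457%. Its G1 and Early_S libraries lay above those of Late_S and G2, and the median gene had 28.8%, 22.2%, 10.99% and 10.4% over the gates. CCNE2 had 83.9%, 84.3% and 86.1% for G1, 72.6%, 77.8% and 92.4% for Early_S, 5.77%, 60.9% and 81.4% for Late_S, and 40.5%, 52.7% and 54.3% for G2, against 0% (0 of 169 reads, which allows up to 1.78%), 2.15% and 0% (0 of 298, up to 1.01%) for No_alk. Late_S 1 stood apart, with 3 T>C reads of 52 (95% Wilson interval 1.98% to 15.6%), and without it Late_S held 60.9% and 81.4%. Early_S and Late_S overlapped, and G2 lay below G1 and Early_S.

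**Figure D4:**
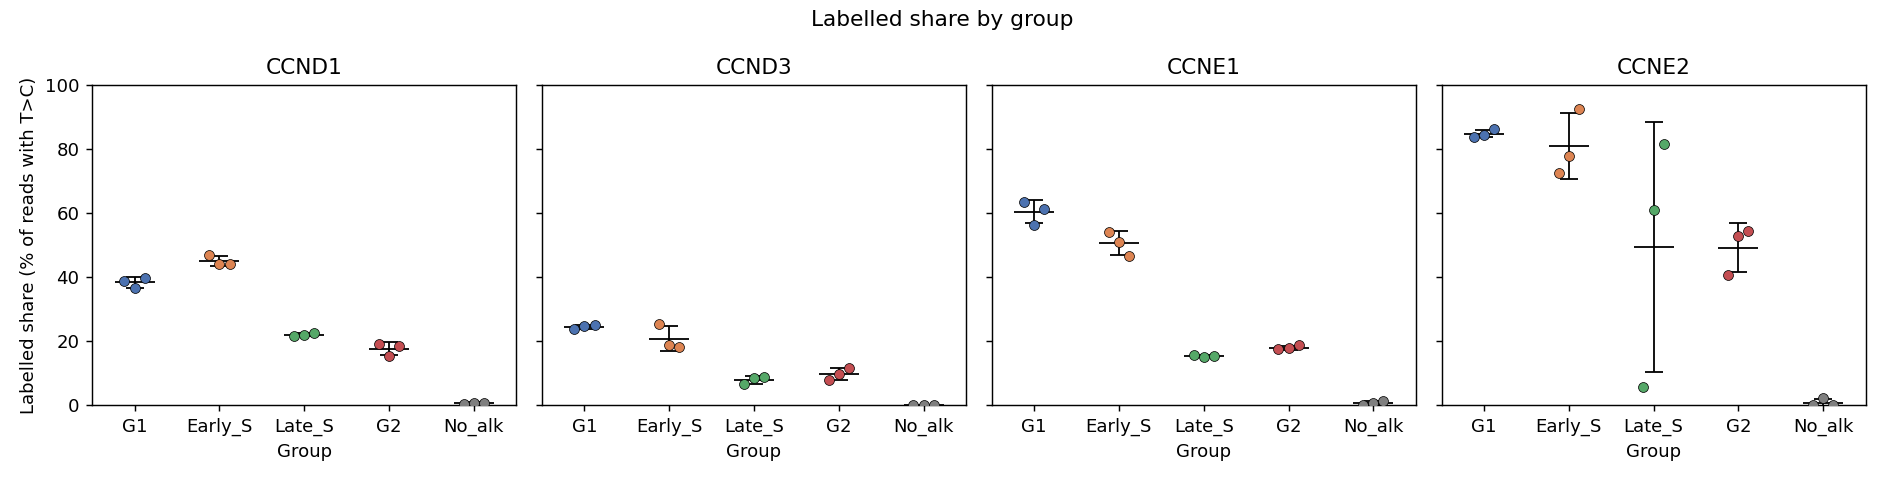
Labelled share, the percentage of a gene's reads that are T>C reads (vertical axis, 0 to 100%), in the 4 gates and No_alk; points are libraries and bars the mean ± SD of 3. CCNE1 has 60.4% in G1 and 15.3% in Late_S, CCND1 is highest in Early_S (45.0%), and all 4 genes are near 0 in No_alk.

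Across all genes, the labelled share was called in 5.34% in Early_S against G1, with 1 of 4 members (CCND1, higher; 4.27% of genes were called higher). In Late_S against G1 and G2 against G1, 7.57% and 8.73% of genes were called, each with 1 member (CCNE1, lower; 3.59% and 4.4% of genes were called lower). In Late_S against Early_S 8.12% were called, with CCNE1 lower (5.85% of genes lower), and in G2 against Early_S 10.6%, with CCNE1 and CCND1 lower (7.66% of genes lower). G2 against Late_S called 0 members and 0.0436% of genes; CCND1 had -0.39 ± 0.13 there (adjusted p = 0.346, unadjusted p = 0.00605), 1 of 4 members at an unadjusted p under 0.05. This test has no DESeq2 counterpart here. With all reads as the scale, the median gene moved by -0.38 in Early_S against G1, -1.64 and -1.74 in Late_S and G2 against G1, and -1.25 and -1.37 in Late_S and G2 against Early_S. Calls then split into 139 higher and 545 lower in Early_S against G1, against 490 and 123 with T>C scaling. In Late_S against G1 they split into 12 and 6646, against 457 and 412, and in G2 against G1 into 14 and 7217, against 497 and 505. In Late_S against Early_S they split into 3 and 5069, against 261 and 671, and in G2 against Early_S into 6 and 5489, against 332 and 879. CCNE1 kept its direction and calls on that scale, with -3.08 in Late_S and -2.81 in G2 against G1.

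The conversion rate counts, in percent, how many covered T positions were read as C, with no test here. It was 6.67% ± 0.571 for G1, 6.03% ± 0.411 for Early_S, 2.0% ± 0.329 for Late_S and 2.34% ± 0.280 for G2 for CCNE1 (SD, n = 3 each), and 4.45% ± 0.373, 5.81% ± 0.510, 2.93% ± 0.212 and 2.39% ± 0.348 for CCND1. CCND1 was thus highest in Early_S and CCNE1 in G1 on this measure as well. CCND3 had 2.68% ± 0.216, 2.61% ± 0.600, 1.54% ± 0.589 and 1.80% ± 0.580, and CCNE2 9.69% ± 0.371, 9.23% ± 2.96, 5.60% ± 4.64 and 5.38% ± 1.74. A CCND3 read covered 13.7 to 14.7 T positions, a CCND1 read 15.5 to 17.0, a CCNE1 read 19.1 to 20.5 and a CCNE2 read 20.02 to 25.8. Shares of these genes thus do not rest on the same number of T positions.

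**Figure D5:**
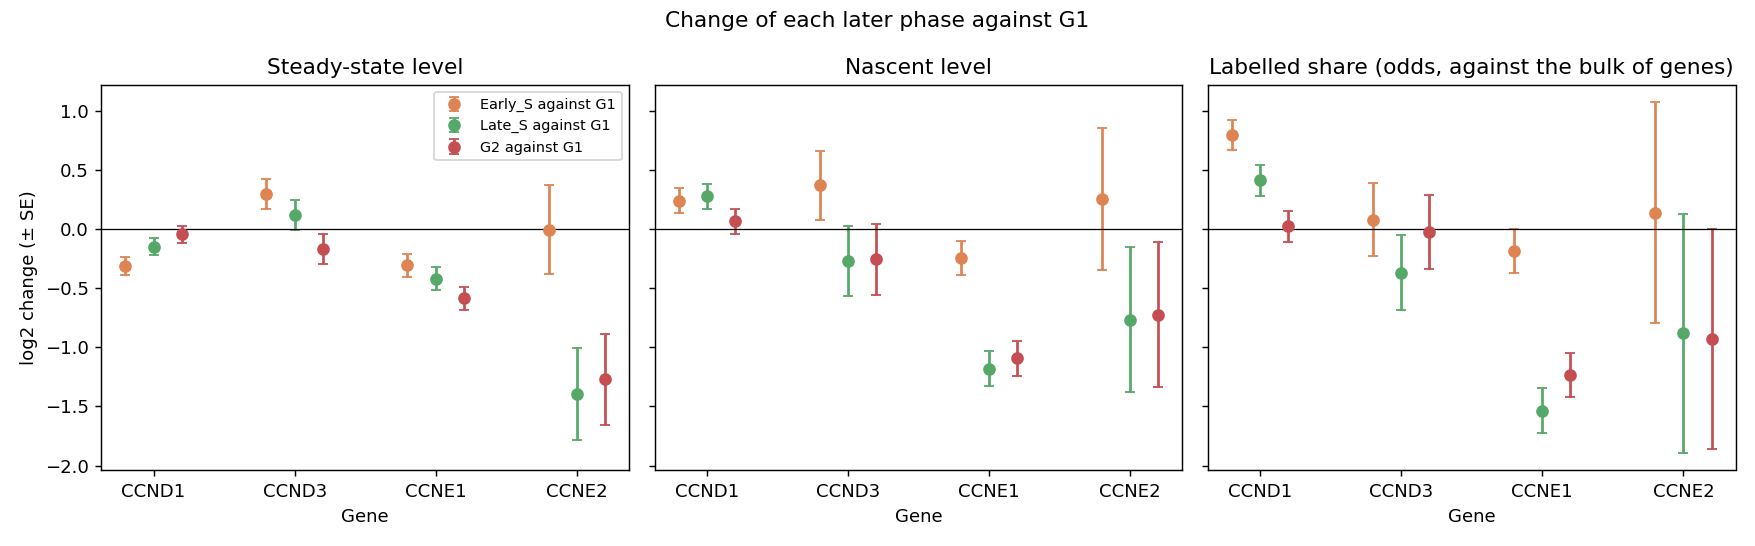
log2 change ± SE of Early_S, Late_S and G2 against G1 (vertical axis) for the 4 genes in steady-state level, nascent level and labelled share (odds against the bulk of genes). CCNE1 lies below 0 in all 3 panels, reaching -1.54 in the share in Late_S, and the CCND1 share lies above 0 in Early_S (0.79).

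In steady-state level, No_alk differed from the mean of the 4 gates in 3 of 4 members, where 43.4% of genes were called. CCND3 was lower there, at 34.5 ± 4.70 CPM (SD, n = 3) against 74.6 (log2 -1.10 ± 0.11, adjusted p = 5.05e-11). CCND1 was higher, at 515 ± 4.05 against 377 CPM (0.46 ± 0.05, adjusted p = 2.38e-09), and CCNE1 was higher, at 172 ± 12.8 against 141 CPM (0.30 ± 0.07, adjusted p = 0.000964). CCNE2 had 11.96 ± 3.69 against 8.67 CPM and did not pass (0.61 ± 0.28, adjusted p = 0.0760). Apart from this comparison, No_alk was used only as the background for T>C reads.

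The partners and regulators of these cyclins were taken from a list of 40 genes. It was chosen with earlier results of these data known, so its counts are given only as a description. Of these genes, 38 were tested at steady state and 26 differed across phases, where 34.1% of all genes did. Early_S against G1 called 10 of them higher and 7 lower, where 24.3% of all genes were called, 12.5% higher and 11.8% lower (median log2 -0.10, beside -0.00 over all genes). G2 against G1 called 10 higher and 10 lower, where 21.1% of genes were called, 11.1% higher and 10% lower (median 0.11 beside -0.01). Of 37 tested in T>C reads 9 differed across phases, where 10.4% of genes did, and of 37 in labelled share 13, where 14.7% did.

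The kinases did not share 1 course. CDK4, the partner of D cyclins, stood at 245 ± 16.9 CPM for G1, 370 ± 41.6 for Early_S, 350 ± 17.3 for Late_S and 336 ± 28.7 for G2 (SD, n = 3; adjusted p = 1.35e-06). CDK6, the other partner, stood at 300 ± 23.1, 299 ± 27.3, 393 ± 17.8 and 399 ± 27.3 CPM (adjusted p = 5.01e-06). CDK2, the kinase of E cyclins, rose by 0.42 ± 0.08 in Early_S against G1 (adjusted p = 7.13e-05), the step in which CCNE1 fell. In T>C reads CDK2 fell by 0.52 ± 0.16 in Late_S against G1 (adjusted p = 0.0459). CDC25A, the phosphatase that activates CDK2, fell by 0.68 ± 0.13 in Early_S against G1 (adjusted p = 0.000112) and had 53.3 to 57.3 CPM in the later gates, against 91.7 in G1.

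Among the inhibitors, CDKN1A, which encodes p21, had a nascent level of 2206 ± 37.2 CPM for G1, 1811 ± 19.9 for Early_S, 919 ± 96.3 for Late_S and 629 ± 113 for G2 (adjusted p = 6.91e-13). CDKN1B, which encodes p27, rose by 0.83 ± 0.21 at steady state in Early_S against G1 (31.8 ± 6.74 against 17.9 ± 4.01 CPM, adjusted p = 0.00283). CDKN2C, an inhibitor of CDK4 and CDK6, rose by 1.51 ± 0.22 at steady state in Early_S against G1 (adjusted p = 7.54e-07). CDKN2A had 0 reads in the 12 alkylated libraries and CDKN2B had 51, and neither was tested.

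RB1, the target of both cyclin classes, rose by 0.89 ± 0.23 in Early_S against G1 (25.6 ± 3.40 against 13.7 ± 5.58 CPM, adjusted p = 0.00364), while its relative RBL1 did not pass across phases (adjusted p = 0.568). E2F1 had 109 ± 10.4 CPM of T>C reads for G1, 51.7 ± 17.1 for Early_S, 29.8 ± 9.09 for Late_S and 34.1 ± 18.3 for G2 (adjusted p = 0.00358), and fell by 1.86 ± 0.41 in Late_S against G1 (adjusted p = 0.00400). At steady state E2F1 instead rose by 0.40 ± 0.11 in Early_S against G1 (114 ± 8.58 against 86.4 ± 7.32 CPM, adjusted p = 0.00673). It then had 90.6 CPM in Late_S and 84.4 CPM in G2. E2F3 fell by 0.89 ± 0.15 at steady state in Early_S against G1 (adjusted p = 2.17e-05). Of the genes that act on cyclin stability, FBXW7, which marks cyclin E, stood at 43.8 ± 1.74, 23.6 ± 6.28, 25.5 ± 4.01 and 23.2 ± 1.36 CPM (adjusted p = 0.000177). SKP2 rose by 0.69 ± 0.11 in Early_S against G1 (adjusted p = 3.52e-06). FBXO31, which acts on cyclin D1, fell by 0.85 ± 0.24 in Early_S against G1 (adjusted p = 0.00648). It rose by 0.97 ± 0.24 in G2 against Early_S (adjusted p = 0.00242), while its nascent level did not pass across phases (adjusted p = 0.990).

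By Pearson's r of log2 CPM over the 12 libraries, among 12358 genes, the genes most like CCNE1 at steady state were VHL (0.95), SLC25A28 (0.94) and MCM5 (0.93). VHL had 71.7, 59.4, 46.7 and 43.6 CPM in G1, Early_S, Late_S and G2. For CCNE2 they were PARS2 (0.93), FST (0.92) and H2AFJ (0.91), and for CCND1 ZNF70, PHRF1 and THAP11 (0.94, 0.94 and 0.93). For CCND3 they were TGFBI, the joint entry of AC026954.2 and GPS2, and AGTPBP1 (0.89 each). The 12 points share the 4 gates and the depth of their libraries, so these values only describe which genes had a like course.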

How the data were processed

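SLAM-seq libraries (QuantSeq 3′ FWD) of U2OS cells were analysed, 3 for each of 4 sorted gates and 3 not alkylated. The deposited tables hold read counts and T>C read counts per annotated 3′ end region on hg38, made by the authors with slamdunk 0.2.4 and an Ensembl 90 annotation, per the submitters' processing notes. How many conversions make a T>C read is not given in the sources used here.

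Rows that share a gene name were added up. Counts were tested in R 4.3.3 with edgeR 4.0.16 (quasi-likelihood, TMM, filterByExpr with a count minimum of 10 and a total minimum of 15, Benjamini-Hochberg adjustment, threshold 0.05) over the 12 alkylated libraries. The labelled share was tested as an interaction of T>C against other reads, between phases with TMM factors of each kind's own, and against No_alk (all 15 libraries) with both kinds scaled by total reads. DESeq2 1.42.0, RLE scaling, no filter, replicate blocks, multimapping, single regions, scaling by all reads and leaving out each library were the alternatives, and the code was tested on simulated data. Intervals of shares are 95% Wilson intervals. They and the limits of 3 counts behind a count of 0 cover counting error only, since no molecular identifiers were used here. Intervals of log2 changes come from the SE of the edgeR fit and carry the spread between libraries.

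Members, gene lists and the rule for named genes were chosen with earlier results of these data known. The named genes are the members, CCND2, 14 genes of the list of 40 taken by name, and the 3 genes best correlated with each member.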

Additional observations from a re-analysis of the deposited data

How the results depend on the processing

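Of 1604 values of the 4 members under the alternatives, 1543 stayed on their side of the threshold without turning a call round. Among them 31 pairwise changes not called in either fit changed sign, 6 of them scaled by all reads. The 4 called contrasts of CCNE1 in nascent level and in labelled share did so in all 19 and all 17 alternatives. Scaling T>C reads by all reads changed the most: it called 6447 genes across phases in nascent level and 7113 in labelled share. It called 5923 and 6658 genes (nascent level, then share) in Late_S against G1, 6198 and 7231 in G2 against G1, 4199 and 5072 in Late_S against Early_S, and 4506 and 5495 in G2 against Early_S. It turned the CCND1 nascent change to -0.95 in Late_S against G1, -1.18 in G2 against G1 and -0.87 in Late_S against Early_S, the CCND1 share to -1.14 and -1.55 in the first 2 of these, and the CCND2 share in G2 against Early_S to -1.09. Across phases it gave adjusted p = 2.87e-10 for CCND1, 1.36e-05 for CCND3 and 0.00496 for CCNE2 in nascent level and 3.05e-05 for CCND3 in share. The construction of this scaling, which keeps the lower T>C totals of Late_S and G2, moves all genes. With own TMM factors, T>C reads are scaled among themselves, so the contrast with No_alk sets a gene against the bulk of genes. There edgeR called 4019 genes in either direction, with CCND2 lower than the bulk (-0.97, adjusted p = 0.00307). The CCND2 share itself was above that of No_alk, at 5.11% in Late_S, the lowest gate, against 0.885%. DESeq2 gave adjusted p = 0.0481 for CCND1 in nascent level across phases, and called 1843 genes there, 980 in Late_S against G1, 748 in Late_S against Early_S and 1053 in G2 against Early_S; the cause was not tested. For G2 against Late_S the counts were 67 without a filter and 108 with DESeq2 in steady-state level, 33 and 103 in nascent level, and 32 without a filter in share. Same-numbered libraries deviated together with a correlation of -0.017 to 0.031 over 18 pairs, 0 of them over 0.1, so the numbers were not taken to pair libraries. As a hint from the data, 9 of 12 libraries correlated best with their own number. With the replicate block, 48 genes were called in G2 against Late_S in steady-state level, and the call of no member changed.

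Leaving out 1 library gave 947 (without Late_S 3) to 1678 called genes in Late_S against Early_S and 3 (without Late_S 3) to 37 (without G1 2) in G2 against Late_S in steady-state level, this pair also 7 without Late_S 1 and 10 without G2 2. In nascent level the counts ran over 358 to 682 in Early_S against G1 (lowest without G1 1, G1 3 or Early_S 2), 407 to 776 in Late_S against G1 (G1 2 or G1 3), 542 to 837 in G2 against G1 (G1 1 or G1 3), 226 to 528 in Late_S against Early_S (Early_S 2 or Early_S 3), 389 to 675 in G2 against Early_S (any Early_S library) and 1 to 19 in G2 against Late_S (lowest without Late_S 1, highest without G2 2, and 3 without any G1 library or Early_S 1). In share they ran over 401 to 696 in Early_S against G1 (lowest without G1 1), 562 to 996 in Late_S against G1 and 639 to 1002 in G2 against G1 (both G1 1 or G1 3), and 2 to 9 in G2 against Late_S (lowest without Late_S 2, 3 without Late_S 3, highest without G2 2). The adjusted p of CCND3 across phases ran over 0.00754 to 0.120 in steady-state level. Depth limits CCNE2 most, with 42 to 254 reads a library.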
